A study of Mus musculus with 10 samples.

Results

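H3K27me3 peaks of WT CD71+Ter119-/lo fetal liver (FL) cells, the Ter119-negative or Ter119-low pro-erythroblast fraction, were followed where they lay near the transcription start site (TSS) of a protein-coding gene. A peak was taken when any of its bases fell within 5 kb on either side of a protein-coding TSS of GENCODE M1 (assembly NCBIM37, the same as mm9) on the 19 autosomes. Of 4992 peaks in the list, 4695 were autosomal and 712 of these (15.2%) met the rule. The peaks were chosen by their own measured enrichment, since only a region that passed the caller's cutoff is in the list, so their tag counts, scores, fold enrichments and false discovery rates (FDR) are given as a description and were not tested.

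The study compared e14.5 FL cells of WT and Mtf2-null (Pcl2 -/-) embryos, sorted with CD71 and Ter119. The null allele was a germline one from EUCOMM embryonic stem cells, so all cells of the embryo carried it, and the line was bred on C57Bl6/J after CD1 host blastocysts had been used for the chimeras. The fractions were CD71+Ter119-/lo and CD71+Ter119high, the latter called CD71+Ter119+ erythroblasts below, with 500000 cells per sample. H3K27me3 was profiled in both fractions of both genotypes and Mtf2 (also called Pcl2) in both WT fractions, and each was set against rabbit IgG, which gave 6 ChIP and 4 IgG libraries. Each condition is 1 library here, although the methods speak of replicates, so no spread between replicates exists and no difference between conditions was tested. Behind each share stands its 95% Wilson interval, where given, which speaks of counting error only and treats peaks as independent.

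The WT CD71+Ter119-/lo H3K27me3 library held 18945784 unique tags, the other 5 ChIP libraries between 15669899 and 67169672, and the 4 IgG libraries between 12345800 and 39667267. Mtf2 and H3K27me3 of the same WT fraction were called against the same IgG library, so these lists are not independent of each other. The Mtf2-null CD71+Ter119-/lo H3K27me3 library was deeper, with 37026535 unique tags, yet gave 1407 peaks. Unique tags made up 34.6% and 39.7% of all tags in the Mtf2 libraries and at least 78.4% in the H3K27me3 libraries. A weak peak from fewer marked cells and one from less mark per cell cannot be told apart in such bulk samples.

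H3K27me3 is trimethylation of lysine 27 on histone H3. It is placed by PRC2, the Polycomb complex built around Ezh2, Suz12 and Eed, and is known for covering the silent promoters of developmental regulators, most of which lie in CpG islands, stretches of GC-rich DNA where CpG dinucleotides have not been lost. Mtf2 is one of the Polycomb-like proteins that join PRC2 and bind unmethylated CpG-rich DNA. In a committed lineage the mark typically covers regulators of other tissues. No RNA was measured in these files, so the sorted identity was not checked against expression. A peak of the set lay within 5 kb of 3.39% of all autosomal protein-coding genes. It did so at 2 of 29 genes of the erythroid list (6.9%), Ank1 and the cell cycle inhibitor gene Cdkn1a, which is not lineage-specific. Such a peak also lay near 2 of 6 megakaryocyte genes and 1 of 15 stem cell and multilineage regulators (6.67%). None of 10 myeloid, 8 lymphoid, 8 hepatocyte, 6 endothelial and stromal or 9 PRC2 genes had one, and lists this short cannot show a share below that of all genes.

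The sequences below are examples of kinds of DNA in the set and do not represent all of it. No sequence is shown for the 341 of 712 peaks that no other list overlapped. All sequences shown are 200 bases around the summit, read 5′ to 3′ from the plus strand of mm9, in lower case with every CpG in capitals. They were the highest-scoring of their kind that held no annotated untranslated region. The first kind was shared with WT erythroblast H3K27me3 and rich in CpG over 1 kb around the summit (CpG island-like, as defined below). This held for 100 of the 227 shared peaks. The 200 bases shown need not be as rich, and the Hmx2 window held as many CpG as the Vps11 window further down. The windows at Hmx2, a homeobox gene, at Epas1, which encodes the hypoxia-inducible factor HIF-2alpha, and at Espn, which encodes an actin-bundling protein, were intronic and held 6, 9 and 14 CpG.
Hmx2, chr7:138698781-138698980: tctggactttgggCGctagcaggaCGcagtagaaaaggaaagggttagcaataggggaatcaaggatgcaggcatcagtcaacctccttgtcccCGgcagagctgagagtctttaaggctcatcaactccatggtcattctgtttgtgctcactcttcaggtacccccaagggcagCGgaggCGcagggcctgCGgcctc
Epas1, chr17:87153935-87154134: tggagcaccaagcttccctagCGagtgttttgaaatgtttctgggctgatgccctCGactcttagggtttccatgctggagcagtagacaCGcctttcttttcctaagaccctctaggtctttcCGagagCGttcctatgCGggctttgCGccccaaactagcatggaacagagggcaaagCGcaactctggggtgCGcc
Espn, chr4:151499682-151499881: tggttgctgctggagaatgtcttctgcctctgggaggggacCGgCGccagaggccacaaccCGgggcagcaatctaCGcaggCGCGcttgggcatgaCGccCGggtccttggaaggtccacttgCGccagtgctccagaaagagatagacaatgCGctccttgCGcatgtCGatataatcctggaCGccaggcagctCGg

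The second kind was overlapped by Mtf2 peaks and built of recurring sequence. The window at Cdkn1a, the gene of the cell cycle inhibitor p21, lay beyond the 3′ end of the gene and held the 15 letters acaactctcagtgat 7 times and no CpG. The windows at Vps11, an endosomal sorting gene, and at the olfactory receptor gene Olfr1155 lay in different chromosomes and were intergenic, yet the 1 kb windows around these summits had 479 of their 978 distinct 24-letter words (49.0%) in common. They held 6 and 3 CpG.
Cdkn1a, chr17:29241187-29241386: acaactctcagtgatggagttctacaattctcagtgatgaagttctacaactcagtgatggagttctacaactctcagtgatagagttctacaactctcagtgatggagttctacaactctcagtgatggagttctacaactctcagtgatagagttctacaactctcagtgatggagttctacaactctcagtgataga
Vps11, chr9:44174776-44174975: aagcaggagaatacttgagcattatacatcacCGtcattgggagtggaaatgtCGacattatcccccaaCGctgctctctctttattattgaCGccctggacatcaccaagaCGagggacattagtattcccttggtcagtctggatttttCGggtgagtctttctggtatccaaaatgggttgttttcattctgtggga
Olfr1155, chr2:87779808-87780007: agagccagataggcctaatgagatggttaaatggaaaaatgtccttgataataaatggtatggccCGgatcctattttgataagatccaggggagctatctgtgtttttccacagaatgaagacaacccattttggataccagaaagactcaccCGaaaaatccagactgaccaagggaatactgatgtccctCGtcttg

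The third kind, 8 of the 712 peaks, was overlapped by a peak of Mtf2-null cells of the same fraction. The windows at Efna2, an ephrin ligand gene, and Gp1bb, the gene of a platelet glycoprotein, carried runs of alternating g and t or c and g, and the 15-letter stretch seen most often in each occurred 3 times. In each window these 3 places overlapped within the same run and were not separate copies.
Efna2, chr10:79645058-79645257: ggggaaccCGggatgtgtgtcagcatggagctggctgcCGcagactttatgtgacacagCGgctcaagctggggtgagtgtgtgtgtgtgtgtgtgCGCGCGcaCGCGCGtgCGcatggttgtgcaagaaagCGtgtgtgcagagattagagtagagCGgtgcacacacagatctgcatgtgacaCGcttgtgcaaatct
Gp1bb, chr16:18616363-18616562: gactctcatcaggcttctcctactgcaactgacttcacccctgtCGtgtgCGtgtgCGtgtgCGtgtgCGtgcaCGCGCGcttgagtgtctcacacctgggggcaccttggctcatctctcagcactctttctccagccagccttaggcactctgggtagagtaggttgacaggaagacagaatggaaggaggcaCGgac

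The 4 words below were the 24-letter words that, taken in turn, lay in most of the Mtf2-overlapped peaks near TSS (within 1 kb around the summit) not yet holding an earlier one. They are shown as examples of the recurring DNA, and 51 of 139 such peaks (36.7%) held at least 1 of them, a share that the choice of the words made high. The first occurred 6092 times in the genome on either strand, the second 1606, the third 11016 and the fourth 1239 times.
24-letter word 1: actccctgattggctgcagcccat
24-letter word 2: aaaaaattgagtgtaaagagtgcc
24-letter word 3: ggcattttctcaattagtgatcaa
24-letter word 4: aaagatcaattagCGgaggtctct

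The signal of the set was weak. The 712 peaks held between 16 and 480 tags with a median of 18, and 365 of them (51.3%, 95% interval 47.6 to 54.9%) had 18 or fewer. For a count of 18 tags the exact 95% Poisson interval ran from 10.7 to 28.4 tags, which covers counting error only. The median length was 708 bp, the median fold enrichment over local IgG was 9.14 and the median score, 10 times the negative log10 of the caller's p, was 56.7, where the cutoff lay at 50. The median FDR was 11.5%, and only 1 peak, at Cdkn1a, had an FDR of at most 5%. Peaks away from TSS had a median of 23 tags and a median length of 843 bp, so the peaks near TSS were smaller by these medians. The gap was not seen within either kind of DNA. Peaks with under 50% recurring sequence, as defined below, had medians of 18 tags and 683.5 bp near TSS and 18 tags and 683 bp away from TSS, and those with more had 27.5 tags and 996 bp against 27 tags and 979 bp.

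The peaks with the highest scores were, with 1 exception, overlapped by Mtf2 and not by the erythroblast mark. The peak at Cdkn1a (chr17:29238121-29246197) was the longest at 8077 bp and held 480 tags at a fold of 12.6 and a score of 329.8. It was not at the 5′ end of the gene. It began beyond the 3′ end, 2969 bp from a TSS inside the gene. Its summit lay 6135 bp from that TSS, so it met the rule by its edge and not by its summit. Peaks of 60, 46 and 61 tags at Vps11, Olfr1155 and Rbm12, an RNA-binding protein gene, followed with scores of 174.4, 140.6 and 129.0. Stx18, which encodes a syntaxin of the endoplasmic reticulum, Ethe1, which encodes a mitochondrial sulfur dioxygenase, and Spnb1, the gene of the erythrocyte membrane protein beta-spectrin, had 31, 38 and 37 tags and scores of 120.4, 120.3 and 115.7. The exception among the 8 was Fam171a2, with 37 tags and a score of 116.2, which no other list overlapped and which also lies within 5 kb of Itga2b, the integrin gene of megakaryocytes. An erythroblast H3K27me3 peak lay elsewhere within 5 kb of a TSS of Fam171a2. The FDR given for Vps11 was 25% although its score was the second highest, while that for Cdkn1a was 0%.

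By fold enrichment the order was led by Gpc6, a glypican gene, at 30.0, followed by Qrsl1, a mitochondrial tRNA amidation gene, at 22.2, E4f1, a transcription factor gene, at 21.4, and Lass4, a ceramide synthase gene, at 21.2. The olfactory receptor gene Olfr784 at 20.2, 9130204L05Rik and Tmem154 at 20.1 and Speer2 at 19.1 completed the 8. All of these but Tmem154 were overlapped by Mtf2 in CD71+Ter119-/lo cells.

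The set was divided most plainly by the other lists. Of the 712 peaks, 227 (31.9%, 95% interval 28.6 to 35.4%) shared at least 1 base with a WT H3K27me3 peak of CD71+Ter119+ erythroblasts, where 6.13% of all 4695 autosomal peaks of the list did. Among the 3983 peaks away from TSS, 61 (1.53%, interval 1.19 to 1.96%) were shared in this way. The order was opposite for Mtf2. Mtf2 peaks of the same cells overlapped 139 peaks near TSS (19.5%, interval 16.8 to 22.6%), against 57.8% of all autosomal peaks and 2577 of those away from TSS (64.7%, interval 63.2 to 66.2%). Much of this gap went with recurring sequence, by which both shares are divided below. The lists also differed in position and size. Of the 4456 autosomal WT erythroblast H3K27me3 peaks 64.3% lay near a TSS, and of the 25805 autosomal CD71+Ter119-/lo Mtf2 peaks 7.38% did. The part of this in the opposite orders was not tested. Mtf2 peaks of CD71+Ter119+ cells overlapped 29 peaks near TSS (4.07%, interval 2.85 to 5.79%), against 12.9% of all autosomal peaks and 578 of the 3983 away from TSS. The order of the erythroblast and Mtf2 shares turned among the 20 peaks with a score of at least 100, of which 1 met an erythroblast peak and 14 a Mtf2 peak of such a score, and 16 of these 20 were made of recurring sequence as defined below. Within 1 kb of a TSS (299 peaks) the shares were 53.5% and 8.36%.

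Mtf2-null cells rarely had a peak at the same place. H3K27me3 peaks of Mtf2-null CD71+Ter119-/lo cells overlapped 8 of the 712 (1.12%, interval 0.570 to 2.2%), against 0.319% of all autosomal peaks of the list. H3K27me3 peaks of Mtf2-null CD71+Ter119+ cells overlapped 3 (0.421%, interval 0.143 to 1.23%), against 0.895%. The absence of a called peak is not a measured absence of the mark, and the part of depth, of the IgG library and of the 16-tag minimum in these numbers was not tested.

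**Figure D1:**
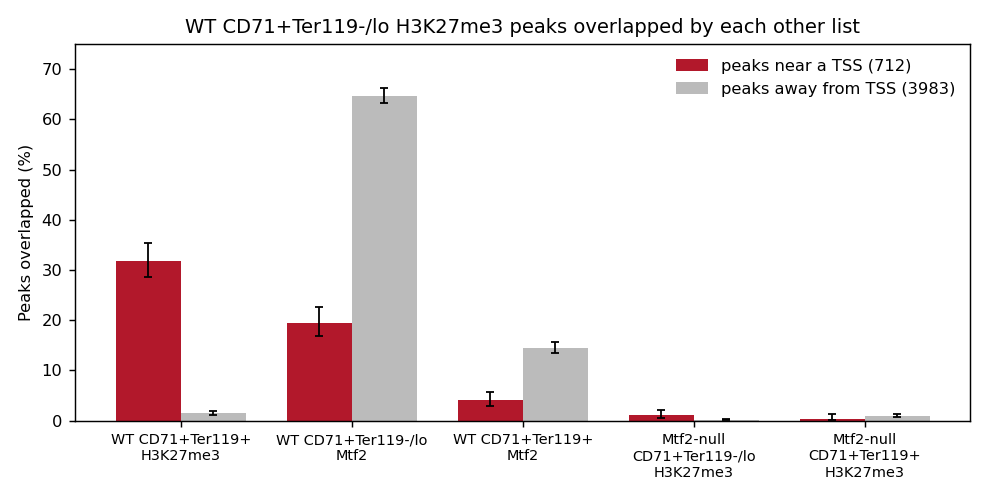
Share of WT CD71+Ter119-/lo H3K27me3 peaks, in percent, that share at least 1 base with a peak of each of the other 5 lists, for the 712 peaks near a protein-coding TSS (red) and the 3983 away from TSS (grey), with 95% Wilson intervals that cover counting error only. Peaks near TSS stand higher for WT erythroblast H3K27me3 (31.9% against 1.53%) and lower for Mtf2 of the same cells (19.5% against 64.7%).

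Taken list by list, 341 peaks near TSS (47.9%) were in none of the other 5 lists, 220 were in WT erythroblast H3K27me3 alone, 107 in CD71+Ter119-/lo Mtf2 alone and 28 in the Mtf2 lists of both fractions. Mtf2 and the erythroblast mark met at only 4 peaks. Of these, 3 are at Hspa1a, a heat shock gene, Npdc1 and Hapln4, a link protein gene, and the fourth is at 2410141K09Rik, all named after their values were seen. Of the remaining 12 peaks, 5 were overlapped by the Mtf2-null CD71+Ter119-/lo list alone, 3 by it and the WT erythroblast list, 3 by the Mtf2-null CD71+Ter119+ list alone and 1 by CD71+Ter119+ Mtf2 alone.

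Base composition set the same peaks apart. A peak was called CpG island-like when 1 kb around its summit was at least 50% GC and held CpG at 0.6 or more of the number its C and G content would give (the CpG ratio). Of the peaks near TSS, 130 (18.3%, interval 15.6 to 21.3%) were CpG island-like, against 4.45% of all autosomal peaks of the list and 79 of 3983 away from TSS (1.98%). The share fell with distance from the TSS, from 87 of 224 peaks with a summit within 1 kb (38.8%, interval 32.7 to 45.4%) to 43 of the other 488 (8.81%, interval 6.61 to 11.7%). Around 1 TSS per protein-coding gene, the one with the lowest coordinate, the same rule was met in 7485 of 21418 windows (34.9%). For minus-strand genes with several TSS this is the most downstream one, so the share is a rough guide to promoters only. Of the 130 CpG island-like peaks, 100 (76.9%, interval 69.0 to 83.3%) were shared with erythroblasts and 3 (2.31%) were overlapped by Mtf2.

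The 227 peaks shared with erythroblasts had a median GC content of 57.2%, a CpG ratio of 0.563 and 46 CpG in 1 kb, and 100 of them (44.1%, interval 37.7 to 50.6%) were CpG island-like. The 139 overlapped by Mtf2 had medians of 45.4%, 0.305 and 16 CpG, and 3 (2.16%, interval 0.737 to 6.15%) were CpG island-like, among them the exonic peak of Hspa1b with 86 CpG. Hspa1b and Hspa1a are near-identical neighbouring copies, so the tags of either are uncertain. The 350 peaks in neither list had medians of 47.2%, 0.245 and 14 CpG, and 29 (8.29%, interval 5.83 to 11.6%) were CpG island-like. The lists that set these classes differed in the same direction. Near TSS, 65.7% of all WT erythroblast H3K27me3 peaks and 2.41% of all CD71+Ter119-/lo Mtf2 peaks were CpG island-like, so the contrast is not particular to this set.

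**Figure D2:**
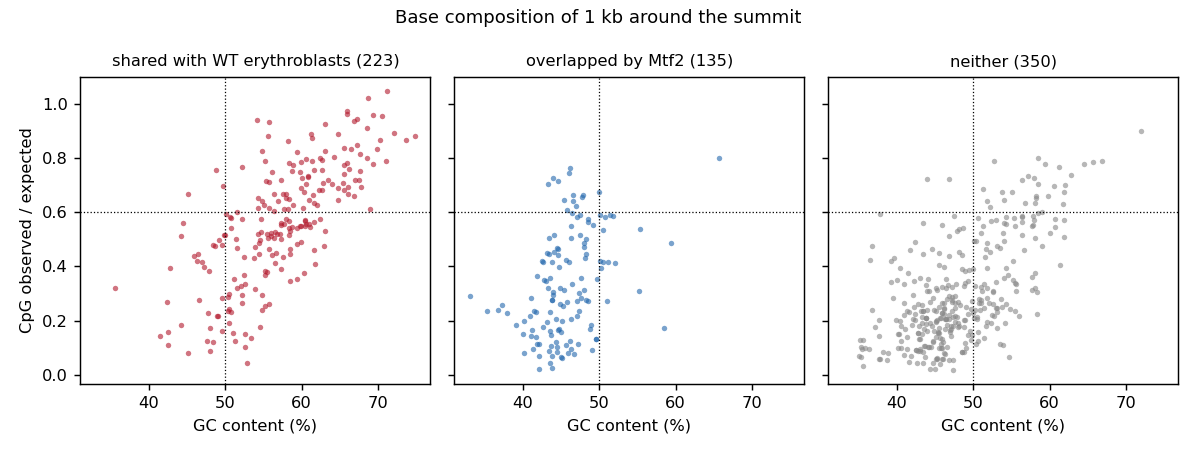
GC content (horizontal axis, percent) against the CpG ratio, observed over expected (vertical axis) of 1 kb around the summit, 1 point per peak near a TSS, for the 223 peaks shared with WT erythroblast H3K27me3 alone (red), the 135 overlapped by CD71+Ter119-/lo Mtf2 alone (blue) and the 350 in neither (grey), with dotted lines at 50% and 0.6. The 4 peaks in both lists are left out, and the red points reach furthest toward the upper right.

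Taken by themselves, the CpG island-like peaks were mostly shared ones. The highest-scoring CpG island-like peak was at Hmx2 (chr7:138698441-138699033), with 21 tags, a score of 90.6 and 60 CpG in 1 kb, and it also lies within 5 kb of Bub3, a spindle checkpoint gene. Those at BC061194, at Epas1 and at Espn had 27, 26 and 30 tags, scores of 90.4, 88.1 and 84.8 and 67, 65 and 70 CpG. Hspa1b, with 42 tags, was the only one of the leading 10 without an erythroblast peak. Scrt1, which encodes a neuronal repressor, and Slc26a4, which encodes the anion exchanger pendrin, had 22 and 26 tags, and Jazf1, a zinc finger gene, Hapln2, a link protein gene, and Pigz, a mannosyltransferase gene, had 21, 20 and 24.

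Of the shared peaks as such, Isl2, a LIM homeobox gene of motor neurons, scored highest at 114.3 with 39 tags (chr9:55390339-55391842), where the erythroblast peak held 178 tags over 3859 bp. Fbxo2, an F-box gene of glycoprotein turnover, and Fam163a followed with 33 and 31 tags and had 44 and 103 tags in erythroblasts. Tbx2, a T-box gene of limb and heart development, had 28 tags and 36 in erythroblasts. None of these 4 leading peaks was CpG island-like, with 38, 13, 22 and 22 CpG in 1 kb. The erythroblast peak was the longer one at 209 of the 227 pairs, with a median length of 1695 bp and a median of 78 tags against 18. Per kb and per 1000000 unique tags the medians lay close together, at 1.33 in CD71+Ter119-/lo cells and 1.40 in erythroblasts, and the erythroblast value was higher in 120 of the 227 pairs. Both peaks of a pair were called on their own tags, so these densities have a lower limit set by the caller.

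Read in the other direction, the overlap was a small part of the erythroblast list. Of 2865 WT erythroblast H3K27me3 peaks near TSS, 225 (7.85%) were overlapped by a peak of the set. The share was 4.32% (interval 3.06 to 6.07%) in the lowest quartile of erythroblast scores and 14.1% (interval 11.7 to 16.8%) in the highest. It was 8.19% of CpG island-like and 7.22% of other erythroblast peaks, with overlapping intervals (7.03 to 9.51% and 5.76 to 9.0%). The erythroblast library held 30054186 unique tags, and the part of this depth in the overlap was not tested.

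Position relative to the TSS differed between the classes. Summits lay a median of 831 bp from the nearest TSS in the peaks shared with erythroblasts, 3390 bp in those overlapped by Mtf2 and 1974 bp in those in neither. Within 1 kb of a TSS were 134 of 227 shared summits (59.0%, interval 52.5 to 65.2%), 13 of 139 overlapped by Mtf2 (9.35%, interval 5.55 to 15.3%) and 78 of 350 in neither (22.3%, interval 18.2 to 26.9%). Shared summits lay downstream of the TSS, in the direction of the transcript, in 149 cases (65.6%, interval 59.2 to 71.5%), and those overlapped by Mtf2 in 46 (33.1%, interval 25.8 to 41.3%). By annotation, 70 shared summits were exonic, 100 intronic and 57 intergenic, and of those overlapped by Mtf2 6 were exonic, 56 intronic and 77 intergenic. Over all 712 the numbers were 121, 296 and 295.

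**Figure D3:**
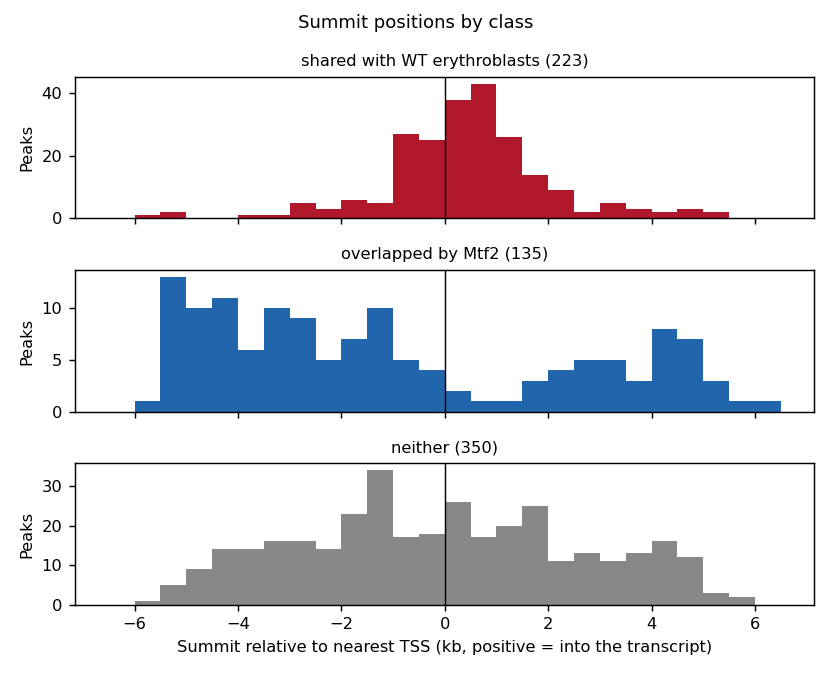
Distance of each summit from the nearest protein-coding TSS (horizontal axis, kb, positive into the transcript) in bins of 500 bp and number of peaks (vertical axis), for the peaks near TSS shared with WT erythroblasts alone (red), overlapped by CD71+Ter119-/lo Mtf2 alone (blue) and in neither (grey). The red summits gather within 1 kb of the TSS and the blue ones spread toward the edges of the 5 kb window.

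The limit of 5 kb cut through a continuous range. The last peaks inside it had their nearest edge 4999 bp from the TSS of Agap3, 4980 bp from that of Lats2 and 4926 bp from that of Defb7, with 17, 26 and 29 tags. The first outside lay 5003 bp from 2310061C15Rik, 5034 bp from Leo1 and 5041 bp from Nkx3-2, with 29, 23 and 16 tags. Agap3 and Lats2 were shared with erythroblasts, and 2310061C15Rik and Leo1 were overlapped by Mtf2.

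Recurring DNA was distributed along the same line. Each 1 kb window was read as overlapping 24-letter words, and its recurring share is the percent of these words found at 10 or more places in the genome on either strand, a measure chosen after the data were seen. The median recurring share was 0% in the 227 peaks shared with erythroblasts, 80.6% in the 139 overlapped by Mtf2 and 4.91% in the 350 in neither. At least 50% of words recurred in 134 of the 712 peaks (18.8%, interval 16.1 to 21.9%). The share was 61.4% of all autosomal peaks of the list and 2.19% of windows at 1 TSS per gene, chosen as above by lowest coordinate. It was 63.0% of all CD71+Ter119-/lo Mtf2 peaks near TSS and 0.384% of all WT erythroblast H3K27me3 peaks near TSS. The contrast between the classes is thus also one between the lists that set them. Of these 134 recurring peaks, 106 (79.1%, interval 71.5 to 85.1%) were overlapped by Mtf2, 1 by the erythroblast mark and none was CpG island-like. Of the 578 others, 33 (5.71%, interval 4.09 to 7.91%) were overlapped by Mtf2 and 226 (39.1%, interval 35.2 to 43.1%) by the erythroblast mark. Away from TSS 2749 of 3983 peaks (69.0%) were recurring. Mtf2 overlapped 85.1% of these (interval 83.7 to 86.4%), close to the share near TSS, and 19.3% of the 1234 others (interval 17.2 to 21.6%), above the 5.71% near TSS. The erythroblast mark overlapped 3.08% of the 1234 (interval 2.25 to 4.2%).

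The 4 words printed above were counted in the other lists. The first lay in 286 of the 4695 autosomal peaks of the list (6.09%), in 5.03% of the CD71+Ter119-/lo Mtf2 peaks and in 0.202% of the WT erythroblast H3K27me3 peaks. The second was in 274 peaks of the list (5.84%) and in no WT erythroblast H3K27me3 peak, and the fourth in 142 (3.02%) and also in none. The third was less restricted. It lay in 21 peaks near TSS, of which 12 were overlapped by Mtf2, in 36 WT erythroblast H3K27me3 peaks (0.808%) and in 10 of Mtf2-null CD71+Ter119-/lo cells (0.751%). Away from TSS 2339 of the 2577 peaks overlapped by Mtf2 (90.8%) were recurring, so the relation was not particular to TSS. How reads with several equally good places were treated is not given in the sources used here. The headers' library names hold the word masked without saying what was masked, and the part of read placement in the shared H3K27me3 and Mtf2 peaks was not tested.

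**Figure D4:**
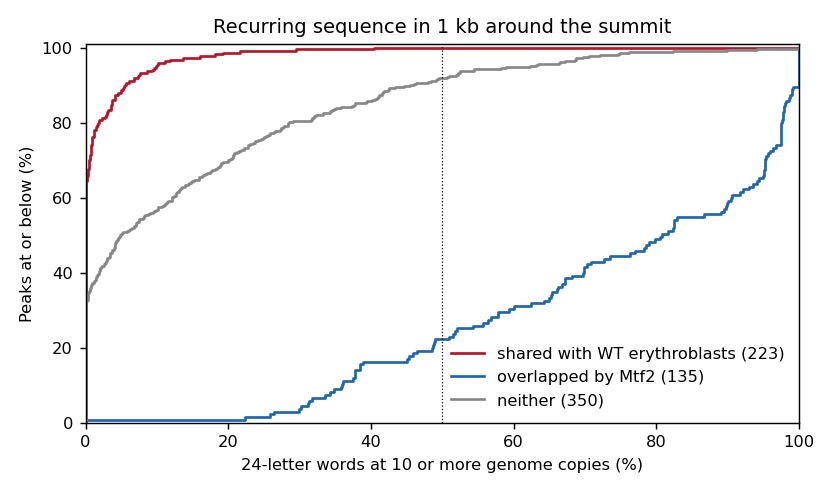
Cumulative percent of peaks near TSS (vertical axis) at or below each recurring share (horizontal axis, percent of 24-letter words at 10 or more genome copies in 1 kb around the summit), with a dotted line at 50%. The peaks shared with erythroblasts alone (red, 223) lie almost wholly at the left, those overlapped by Mtf2 alone (blue, 135) mostly to the right of the line and those in neither (grey, 350) between.

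The peaks overlapped by Mtf2, 106 of which were recurring, were also the larger ones. Their median was 26 tags over 942 bp, against 18 tags over 684 bp in those shared with erythroblasts and 18 over 680.5 bp in those in neither. The Mtf2 peaks at the same places held a median of 117 tags over 2484 bp and were longer than the H3K27me3 peak at 122 of 139. At Cdkn1a Mtf2 had 727 tags over 8211 bp in CD71+Ter119-/lo cells and 268 tags over 7401 bp in CD71+Ter119+ cells. At Olfr1155 it had 396 tags over 7526 bp in the first fraction. Of the 139, 28 (20.1%) were overlapped by Mtf2 in both fractions, close to the 562 of 2577 Mtf2-overlapped peaks away from TSS (21.8%). The 28 were led by Cdkn1a, Vps11, Stx18, Spnb1 and Cdk5rap1, with recurring shares of 56.9, 97.5, 97.6, 95.1 and 98.6%.

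The 712 peaks lay within 5 kb of a TSS of 725 of 21418 autosomal protein-coding genes (3.39%), with 84 peaks in reach of 2 genes and 8 in reach of 3. Of the 725 genes, 645 had 1 peak, 74 had 2, 5 had 3 and 1 had 4. Of the 725, 372 (51.3%) also had a WT erythroblast H3K27me3 peak within 5 kb, against 12.0% of all autosomal genes, so many genes had a peak in both fractions, not always at the same bases. For CD71+Ter119-/lo Mtf2 the numbers were 174 genes (24%) against 8.34% of all autosomal genes, and for Mtf2-null CD71+Ter119-/lo H3K27me3 39 genes (5.38%) against 1.26%.

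The gene with most peaks was Fgf8, a growth factor gene of limb and brain patterning, with 4. They held 24, 17, 17 and 16 tags, lay between 0.963 kb downstream and 3.04 kb upstream of the TSS and were all shared with erythroblasts. Hand1, a heart and trophoblast transcription factor gene, had peaks of 16, 18 and 16 tags, the first of them shared. Sbk1, a kinase gene, had 17, 17 and 16 tags with only the exonic peak at the TSS shared, and Dnajc22 had 19, 18 and 19 with the first pair shared. Hmox2, the gene of the constitutive heme oxygenase, was unlike these, with 37, 18 and 23 tags, all overlapped by Mtf2 and with recurring shares of 98.8, 100 and 82.3%. Vax2, a homeobox gene, also had 3 peaks and is named after its values were seen.

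Developmental transcription factors were frequent among the genes. In the Hox, Gata, Lhx, Pax, Sox, Fox, Tbx, Dlx, Irx and Nkx families 35 of 158 autosomal genes (22.2%) had a peak, against 3.39% of all genes. Of the 35, 33 also had a WT erythroblast H3K27me3 peak within 5 kb, as did 110 of the 158, and 1 had a CD71+Ter119-/lo Mtf2 peak there, Lhx1. The 39 peaks at these genes included 20 shared with erythroblasts, 12 that were CpG island-like, none overlapped by Mtf2 and none recurring. The families were listed with earlier results of these data known, so the counts describe them and were not tested.

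Lhx genes, which encode LIM homeodomain proteins, stood highest with 7 of 8. Lhx1 had 24 tags, Lhx2 21, Lhx6 21 and Lhx8 17 at their highest-scoring peaks, and those of Lhx1, Lhx6 and Lhx8 were shared with erythroblasts while that of Lhx2 was not. The Gata family of zinc finger factors had 3 of 5 genes. Gata4, a heart and gut factor, had peaks of 19 and 18 tags, both shared, and Gata6 had 1 of 18 tags, also shared. Gata2, a factor of blood stem cells and progenitors, had 1 intronic peak of 17 tags at 2.25 kb from the TSS, not overlapped by any other list, although an erythroblast peak lay elsewhere within its 5 kb.

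Other families had lower shares. T-box genes had 4 of 12, with 28 tags at the higher-scoring of 2 peaks at Tbx2, 19 and 16 at Tbx4 and 16 at Tbx5. Sox genes had 5 of 18, with 16 tags each at Sox17 and Sox7, regulators of endoderm and endothelium, and at Sox21 and Sox18, and the last pair was shared. Nkx genes had 4 of 14, Irx 2 of 6, Pax 2 of 9 and Dlx 1 of 6. Fox genes had 5 of 40, led by Foxl2 with 24 tags, a gene of ovary development, and Hox genes had 2 of 40, although 31 of the 40 had an erythroblast peak. Hox genes are clustered, so several share 1 region.

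Signalling genes and genes of other families were counted in the same way. Of 19 Wnt ligand genes Wnt10b had a peak, with 16 tags, and of 10 Fzd receptor genes Fzd2 did, with 20 tags, shared with erythroblasts. No other list overlapped the Wnt10b peak, but an erythroblast peak lay elsewhere within 5 kb of a TSS of Wnt10b. Erythroblast H3K27me3 peaks were near 12 Wnt and 7 Fzd genes. Fgf genes had 4 of 20 and Bmp and Gdf genes 4 of 20, with 23 tags at the exonic Gdf6 peak and 19 at Bmp4. The Fgf list and the Bmp and Gdf list were added after the other lists, so their shares are not those of an unselected survey. Not all families that were counted are given here. Of 8 genes named Cdkn, 4 had a peak: Cdkn1a, then Cdkn2b, Cdkn2a and Cdkn3 with 16, 20 and 16 tags. Olfactory receptors had 13 of 1081 (1.20%), and 9 of the 13 had a CD71+Ter119-/lo Mtf2 peak within 5 kb, as did 102 of all 1081. None of the 13 had an erythroblast H3K27me3 peak, but only 4 of the 1081 did, so this is no trait of the 13. Vomeronasal receptors had 4 of 319 (1.25%) and zinc finger genes named Zfp 10 of 337 (2.97%), the latter near the 3.39% of all genes.

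**Figure D5:**
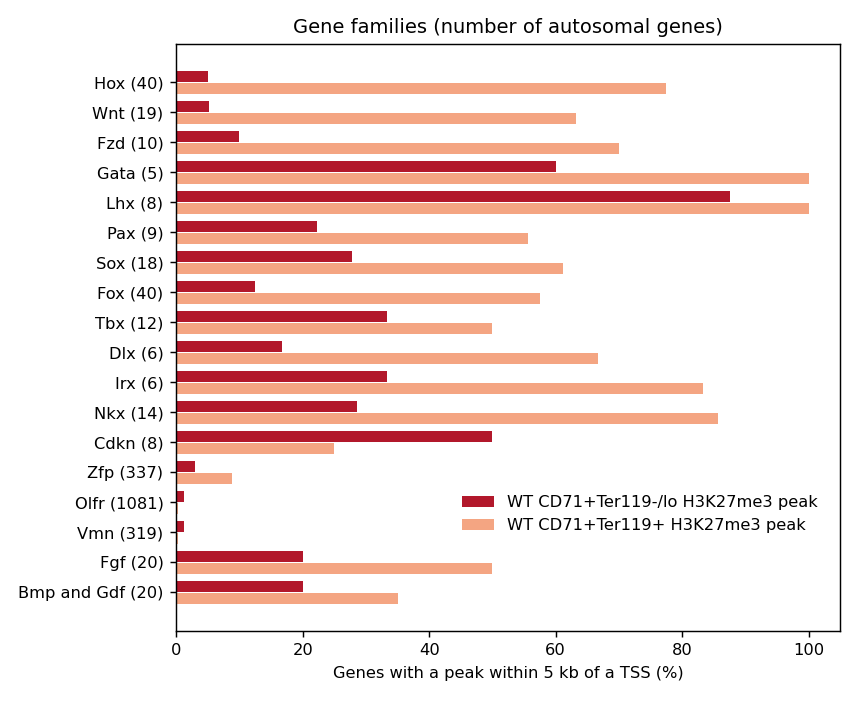
Percent of the autosomal genes of each family (horizontal axis) with a WT CD71+Ter119-/lo H3K27me3 peak (red) or a WT CD71+Ter119+ H3K27me3 peak (light) within 5 kb of a TSS, with the number of genes in brackets. The red bar is longest for Lhx (87.5%) and is shorter than the light bar in the developmental families, while it is the longer one for Cdkn, Olfr and Vmn.

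Genes of the blood lists were read one by one, since their counts were small. Ank1, the ankyrin gene of the red cell skeleton, had a peak of 16 tags at 1.17 kb upstream of a TSS that no other list overlapped. An erythroblast H3K27me3 peak lay elsewhere within 5 kb of a TSS of Ank1. Among 6 megakaryocyte genes, Gp1bb had 18 and 16 tags at 2 peaks and Itga2b was reached by the 37-tag peak of Fam171a2. The 18-tag peak of Gp1bb was overlapped by the Mtf2-null list and the 16-tag peak by the WT erythroblast list. Among 15 stem cell and multilineage regulators Gata2 alone had a peak, and 7 had one in erythroblasts.

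The 8 peaks that an Mtf2-null CD71+Ter119-/lo peak overlapped held 16 to 21 tags in WT. They were at Efna2, Plekhh1, Gp1bb, Mnx1, a motor neuron homeobox gene, Pcdhgc5, a protocadherin gene, Gdf6, Pou3f1, a POU factor gene of Schwann cells, and Sox6, a repressor of embryonic globin genes. The Mtf2-null peaks held 24 to 31 tags, with an FDR of 100% at all 8. Per kb and per 1000000 unique tags they had a median of 1.00 against 1.34 in WT and were lower at all 8. Both peaks of a pair were called on their own tags and lay near the fewest tags of their list, 24 in Mtf2-null and 16 in WT. The caller thus set a lower limit to both densities, and their order cannot be read as a difference in the mark. The libraries differed in depth, 37026535 against 18945784 unique tags, and the part of depth in this difference was not tested. None of the 8 was overlapped by Mtf2 (0 of 139 peaks with Mtf2, where a count of 0 still permits 2.16%), and Plekhh1, Pou3f1 and Sox6 were shared with WT erythroblasts.

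The 3 peaks overlapped by Mtf2-null CD71+Ter119+ H3K27me3 were at Gm1631, Ces1a, a carboxylesterase gene, and 1700025G04Rik. They held 30, 17 and 16 tags in WT and were met by peaks of 42, 66 and 35 tags. Their recurring shares were 42.4, 48.0 and 10.1%, their GC contents 43.0, 35.3 and 40.9%, and no other list overlapped them.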

How the data were processed

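Peak lists of 6 ChIP libraries were analysed, 1 per condition, with 10 libraries in all. The authors used Bowtie2 2.2.3 for alignment to mm9 and MACS 1.3.7 for peaks, with the IgG of the same fraction and genotype as control, at a p cutoff of 1e-05 per the file headers. Whether replicates were pooled is not given in the sources used here. The deposited tag counts are reads per peak, not scaled for depth. The deposited score is 10 times the negative log10 of the authors' p, the deposited fold enrichment is a ratio of ChIP to local IgG, and the deposited FDR is a percent.

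Overlap meant at least 1 shared base. The distance of a peak from a TSS was taken from its summit, and gene windows used any TSS of a protein-coding gene in GENCODE M1. A location was exonic or intronic by protein-coding gene models. Composition and 24-letter words were read in 1 kb around the summit. The steps were checked on simulated intervals and run with Python 3.11.15, numpy 2.4.6, pandas 2.3.3 and pysam 0.24.0.

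The members and lists were chosen with earlier results of these data known. Named genes are the 8 highest by score and by fold, the 5 with most peaks, leading peaks of each class, peaks at the edge of the window and up to 4 per gene list. With 1 library per condition no test was run. Alternatives are a TSS window of 1 or 10 kb, the summit in the window, scores from 100 up, FDR values up to 5%, protein_coding transcripts only, the X chromosome, an overlap of 50%, a peak within 1 kb, other composition windows and, added after seeing the data, peaks with under 50% recurring words. IgG libraries enter through the authors' values only. The results of 1 gene family are not reported here.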

Additional observations from a re-analysis of the deposited data

How the results depend on the processing

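The number of peaks near TSS, 712, and of genes, 725, moved with the rule. A TSS window of 1 kb gave 299 peaks and 292 genes and one of 10 kb 1146 genes, a score of at least 100 gave 20 peaks and 26 genes, and an FDR of at most 5% gave 1 peak and 1 gene. The share with a WT erythroblast H3K27me3 peak, 31.9%, was 23.7% for an overlap of at least 50% of the peak, 41.4% for a peak within 1 kb, 53.5% for the 1 kb TSS window, 39.1% without recurring peaks and 5% (1 of 20) at a score of at least 100 in both lists. The share with CD71+Ter119-/lo Mtf2, 19.5%, was 8.36% for the 1 kb TSS window, 5.71% without recurring peaks and 70.0% (14 of 20) at the higher score. The score thus turned the order of these shares, and 16 of the 20 peaks at that score were recurring. For CD71+Ter119+ Mtf2, 4.07%, the values were 2.81% for an overlap of 50%, 1.00% for the 1 kb window, 0.346% without recurring peaks and 10.0% at the higher score. At that score 0% of 20 peaks were overlapped by either Mtf2-null list and 0% were CpG island-like, where a count of 0 still permits 15%. The CpG island-like share, 18.3%, was 31.4% for the 1 kb TSS window and 22.5% without recurring peaks. The other 22 values stayed within 1.5 times the count or inside the interval of the share. No paired analysis was possible because each condition had 1 library. Low tag counts limit the set, as the peaks had a median of 18 tags.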
